A study of Homo sapiens with 12 samples.

Results

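A set of 10 genes that mark the differentiated intestinal epithelium were followed in gastric cancer cells in which the zinc-finger gene ZNF165 had been knocked down or overexpressed. They are VIL1, CDH17, LGALS4, TSPAN8, GPA33, MUC13, FABP1, CEACAM5, CEACAM6 and AGR2. They were chosen by name, as intestinal epithelial and carcinoembryonic genes, and make up 10 of the 50868 gene identifiers in the count table. Each symbol matched a single Ensembl identifier. In GENCODE 29 (GRCh38), CEACAM5 (chr19:41708585-41729798) and CEACAM6 (chr19:41750977-41772208) lie close together on the plus strand, while LGALS4 lies elsewhere on the same chromosome (chr19:38801671-38813364). MUC13 (chr3:124905442-124953819), AGR2 (chr7:16791811-16833433), TSPAN8 (chr12:71125085-71441898) and VIL1 (chr2:218419092-218453295) lie on other chromosomes.

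These genes carry out the work of the mature gut epithelium. Absorptive cells build a brush border of actin-filled microvilli, hold together through cadherins, and display glycoproteins, tetraspanins and transmembrane mucins on the apical face, while secretory cells fold and export mucins. Many of these genes are kept low in the normal stomach and come on in intestinal metaplasia and in part of gastric cancers. CEACAM5 encodes the carcinoembryonic antigen used as a serum tumour marker.

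MKN28 and MKN45 are established lines of human gastric adenocarcinoma. The 4 groups, of 3 libraries each, were MKN28 given a lentivirus with a small interfering RNA against ZNF165, MKN28 given a control lentivirus, MKN45 given a lentivirus that overexpresses ZNF165, and MKN45 given a control lentivirus. All cells thus carried a lentivirus, and the controls are labelled wild type. For knockdown replicates 2 and 3 the description field has ZNF166 and ZNF167 where the genotype field has a ZNF165 knockdown, and the genotype was followed. No label states that replicates came from separate cultures, so p-values measure only the spread between libraries, and that spread may be technical.

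Library totals ran from 12075813 to 19548445 counts. ZNF165 averaged 3.74 ± 1.13 CPM (counts scaled to library size) in the knockdown, against 10.4 ± 2.31 CPM in MKN28 controls (log2 fold change -1.47, edgeR adjusted p = 0.0459). It averaged 104 ± 6.20 CPM in the overexpression, against 12.2 ± 4.76 CPM in MKN45 controls (SD, n = 3 each, edgeR adjusted p = 0.0109). All 10 epithelial markers were present in all 4 groups, and the leukocyte gene PTPRC had at most 3 counts in any library. Of 12 gastric markers in the table, GKN1 was at 0 in all 12 libraries, and the 12 summed to at most 3.64 CPM in any MKN28 library, against 165 CPM in the lowest MKN45 library.

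The pair of lines lay at opposite ends for these genes. In MKN45 controls 7 of the 10 averaged at least 7.91 TPM, and in MKN28 controls CEACAM6 and CEACAM5 alone averaged above 1 TPM. TPM is a level scaled to transcript length and library size, and so compares genes. In MKN45 controls AGR2, a protein disulfide isomerase of the endoplasmic reticulum needed for mucin folding, was at 2925 ± 1182 TPM (SD, n = 3). CEACAM6, a GPI-anchored adhesion molecule of the carcinoembryonic family, was at 1213 ± 296 TPM. The lowest AGR2 library, at 1560 TPM, lay just above the highest CEACAM6 library, at 1496 TPM.

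LGALS4, a galectin that binds glycolipids at the apical membrane, averaged 352 ± 29.2 TPM in MKN45 controls. CEACAM5 averaged 350 ± 106 TPM there, and TSPAN8, a tetraspanin, 335 ± 165 TPM. The ranges of these 3 genes overlapped, so their order is not resolved. VIL1, the actin-bundling protein villin of the microvillus core, followed at 31.0 ± 1.76 TPM, and MUC13, a transmembrane mucin, at 7.91 ± 1.15 TPM.

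GPA33, the A33 surface glycoprotein, was at 0.632 ± 0.193 TPM in MKN45 controls, and CDH17, the liver-intestine cadherin, at 0.422 ± 0.356 TPM, again with overlapping ranges. FABP1, the liver-type fatty acid binding protein of enterocytes, was lowest at 0.143 ± 0.0318 TPM and overlapped CDH17. FABP1 had between 0 and 6 counts in each of the 12 libraries and was tested in no comparison.

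In MKN28 controls the highest member was CEACAM6, at 6.78 ± 2.05 TPM, followed by CEACAM5 at 1.04 ± 0.390 TPM and LGALS4 at 0.632 ± 0.106 TPM (SD, n = 3). CDH17 and MUC13 had no count in any MKN28 control library, and TSPAN8 had 1 count in 1 library. The 10 members summed to between 3796 and 6397 TPM in MKN45 controls and between 7.35 and 11.5 TPM in MKN28 controls.

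**Figure D1:**
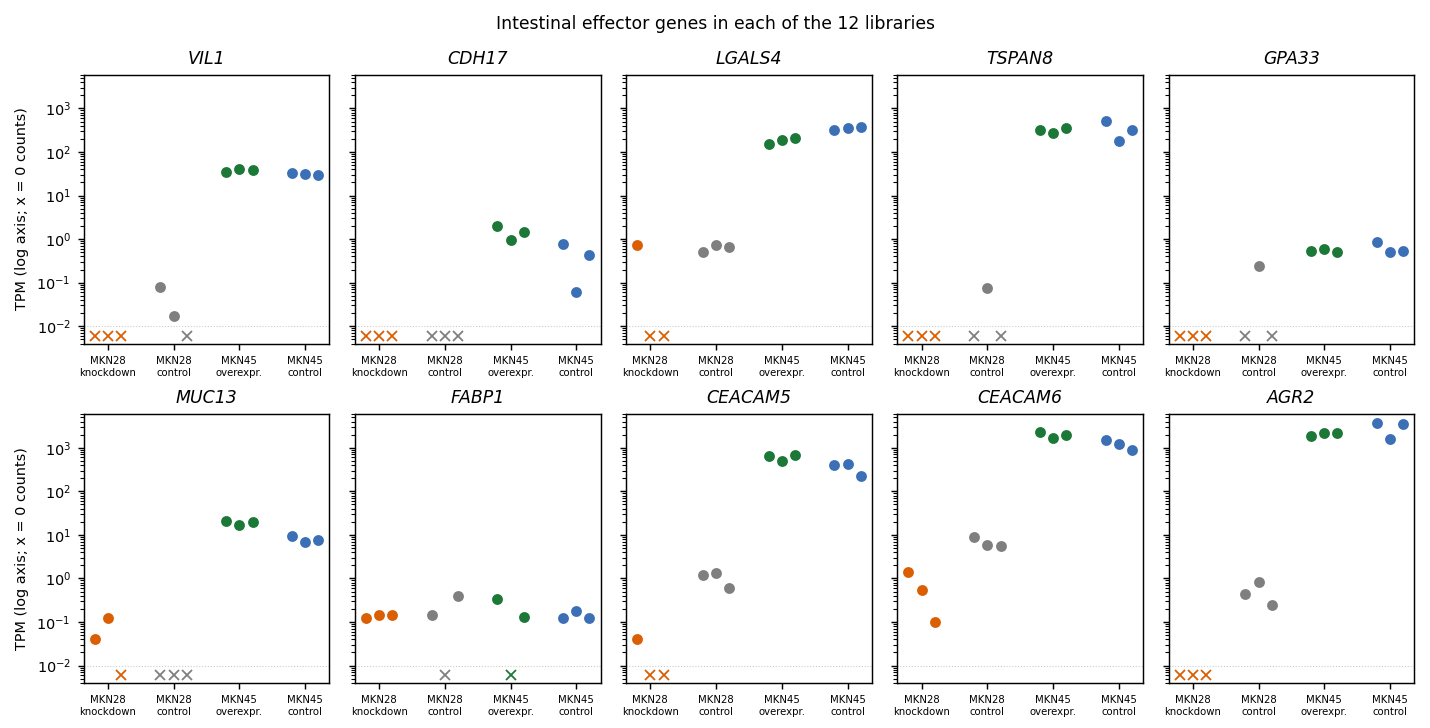
Level of each member in every library, in TPM on a log axis, for MKN28 knockdown, MKN28 control, MKN45 overexpression and MKN45 control (3 points each, crosses mark 0 counts). Of the 10 genes, FABP1 alone sits at the same low level in both lines.

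Set against MKN28 controls, MKN45 controls were higher for all 8 members that could be tested, at an edgeR adjusted p under 0.05. Of all 16088 genes tested, 41.8% passed, made up of 21.4% higher and 20.4% lower in MKN45. The groups did not overlap for the 8, against 52.3% of all genes. The 8 entered the test through their counts in MKN45, so their number is a description only. Among members with more than 1 count over the MKN28 controls, the highest contrast was AGR2, with 56551, 25239 and 55710 counts in MKN45 controls and 6, 13 and 3 counts in MKN28 controls (log2 fold change 12.78, SE 0.63, edgeR adjusted p = 2.01e-07).

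LGALS4 had 4305, 5046 and 5034 counts in MKN45 controls and 6, 10 and 7 counts in MKN28 controls (log2 fold change 9.54, SE 0.48). VIL1 had 5396 counts over the MKN45 controls and 5 over the MKN28 controls (log2 fold change 10.24, SE 0.66). CEACAM5 was higher by 8.82 (SE 0.57) and CEACAM6 by 7.94 (SE 0.45) on the log2 scale. No library of either line reached into the range of the other for these genes.

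Where MKN28 was nearly empty, the fitted value is no measure of size. TSPAN8 had 13431 counts over the MKN45 controls and 1 count over the MKN28 controls, a ratio of 15851 with a counting interval of 2844 to 626126. MUC13 had 605 counts in MKN45 controls and none in MKN28 controls, at least 238-fold higher when 3 counts are taken as the most that a group of libraries at 0 allows. CDH17, with 41 counts in MKN45 controls, was at least 16.1-fold higher and was not tested.

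GPA33 had the smallest difference of the tested members, with 21, 13 and 13 counts in MKN45 controls and 0, 6 and 0 counts in MKN28 controls (log2 fold change 3.11, SE 0.91, adjusted p = 0.0158). It no longer passed without MKN28 control replicate 1 (adjusted p = 0.0732) or replicate 3 (adjusted p = 0.0558). FABP1 had 7 counts in each control group. In bulk RNA, fewer cells that express a gene and less RNA per cell cannot be told apart.

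Start regions of CEACAM5 and CEACAM6 are shown because each was the nearest member to the other in pattern. That is not particular to this pair, since VIL1 and TSPAN8 lay closer. Sequences are from RefSeq (GRCh38.p14), with positions counted backward from the annotated start, and 8 members had a window of 250 upstream bases that was searched on both strands. The E-box CACGTG, a hexamer bound by basic helix-loop-helix factors, was in the windows of CEACAM5 and CEACAM6 and of no other member searched, and in 6.34% of all 35116 windows. Of the 250 upstream bases, all lie in annotated exons of the gene itself for LGALS4 and GPA33, as do 220 in one TSPAN8 window, 109 for CEACAM6, and 41 in exons of CEACAM5 or AC243967.1 for CEACAM5. The E-box began 46 bases before the CEACAM5 start (chr19:41708568-41708597, plus strand) and 45 bases before the CEACAM6 start (chr19:41755473-41755502, plus strand). In GENCODE 29 the CEACAM5 gene begins at base 41708585, within its printed stretch. The CEACAM6 gene begins farther upstream, at 41750977, so its E-box may lie in an exon. Both 30-base stretches are printed with the E-box in capitals.
CEACAM5: acacccatgaccCACGTGatgctgagaagt
CEACAM6: gcacccatgaccCACGTGaccctgggaaat
Over their whole windows, 73.6% of the aligned positions of the pair were identical, with a longest identical run of 21 bases.

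The letters TTTAT, the core of sites of CDX factors, were in 5 members and in 32.7% of all windows. A match describes letters in a window and does not show that a factor binds.

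Overexpression of ZNF165 in MKN45 moved no member past the threshold. Of 9 members tested by edgeR, 0 had an adjusted p under 0.05, against 1.13% of all 15833 genes (0.935% higher, 0.196% lower), while 4 had an unadjusted p under 0.05, against 26.8% of all genes. DESeq2 called 2 of the 9, LGALS4 lower and MUC13 higher, and 11.6% of all genes. The groups did not overlap for 5 of the 9, against 38.1% of all genes. The median log2 fold change of the 9 was 0.02, beside 0.00 for all genes.

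MUC13 and CDH17 had the highest values relative to control. MUC13 had 28.8, 23.1 and 26.4 CPM in overexpressing cells and 13.0, 13.4 and 12.2 CPM in MKN45 controls. Each overexpression library lay above each control, with a log2 fold change of 1.02 (SE 0.22) and an edgeR adjusted p of 0.0539. CDH17 had 69, 33 and 45 counts in overexpressing cells and 25, 2 and 14 counts in controls, without overlap (log2 fold change 1.60, SE 0.59, edgeR adjusted p = 0.138).

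LGALS4 and AGR2 lay on the other side. LGALS4 had 116, 135 and 154 CPM in overexpressing cells and 241, 372 and 321 CPM in controls, with no overlap (log2 fold change -1.20, SE 0.23, edgeR adjusted p = 0.0505). AGR2 had 1575, 1856 and 1763 CPM in overexpressing cells and 3162, 1861 and 3548 CPM in controls (log2 fold change -0.72, SE 0.25, edgeR adjusted p = 0.125). The gap for AGR2 was narrow, since control replicate 2 lay close to overexpression replicate 2.

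**Figure D2:**
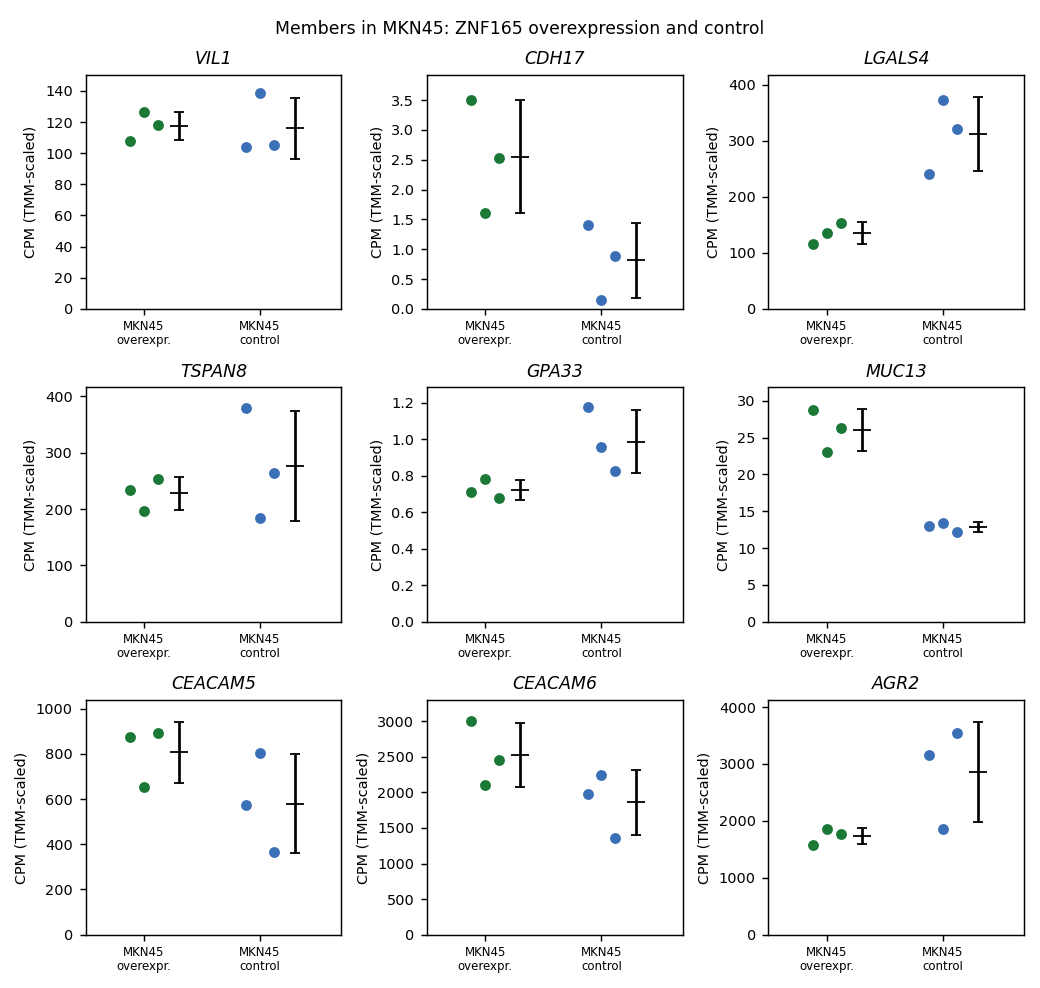
CPM, scaled by TMM factors, of the 9 tested members in each MKN45 library, overexpression left and control right, with mean and SD beside the points (n = 3). The groups separate for CDH17, LGALS4, GPA33, MUC13 and AGR2 and overlap for VIL1, TSPAN8, CEACAM5 and CEACAM6.

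Some of these calls depended on control replicate 2. Without it, genes called rose to 1338 of all genes, against 179 with it, and edgeR gave adjusted p values of 0.0142 for AGR2, 0.0195 for LGALS4 and 0.0182 for MUC13, with log2 fold changes of -0.96, -1.06 and 1.05. LGALS4 also passed without control replicate 1 (adjusted p = 0.0393), where 591 genes were called. Leaving out an overexpression library brought none of the 3 past the threshold. Leukocyte markers, with PTPRC at 0 in all 6 libraries, summed to 166 to 248 CPM of library totals in overexpressing cells and to 105 to 139 CPM in controls, with 2 of 8 tested and none called. LYZ carries that sum (206 ± 45.5 CPM in overexpressing cells and 120.2 ± 17.1 CPM in controls), while CD68 overlapped. Their part in these results was not tested.

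The carcinoembryonic pair did not separate. CEACAM6 had 3000, 2111 and 2462 CPM in overexpressing cells and 1982, 2242 and 1358 CPM in controls (log2 fold change 0.44, SE 0.24, edgeR adjusted p = 0.263). CEACAM5 had 876, 653 and 891 CPM in overexpressing cells and 572, 803 and 365 CPM in controls (log2 fold change 0.48, SE 0.29, edgeR adjusted p = 0.317). For both genes the highest control library lay above the lowest overexpression library. CEACAM5 counts were 29.2%, 30.9% and 36.2% of CEACAM6 counts in overexpressing libraries and 28.9%, 35.8% and 26.8% in controls.

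VIL1 had 108, 126 and 118 CPM in overexpressing cells and 104, 139 and 106 CPM in controls, with a log2 fold change of 0.02 (SE 0.21, edgeR adjusted p = 0.965). TSPAN8 had 233, 196 and 253 CPM in overexpressing cells and 379, 185 and 265 CPM in controls (log2 fold change -0.28, SE 0.28, edgeR adjusted p = 0.533). GPA33 was scarce, at 14, 16 and 12 counts in overexpressing cells and 21, 13 and 13 counts in controls (log2 fold change -0.45, SE 0.37, edgeR adjusted p = 0.448). The error of each of these 3 was about the size of its value or larger, apart from GPA33, where it was somewhat smaller.

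**Figure D3:**
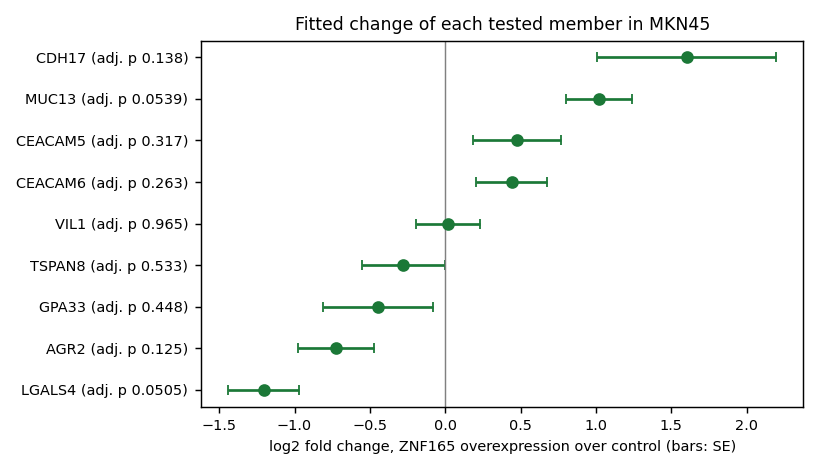
Log2 fold change of each tested member, ZNF165 overexpression over MKN45 control, with SE bars and edgeR adjusted p beside the name. LGALS4 (-1.20) and MUC13 (1.02) lie farthest from 0 relative to their errors.

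The make-up of the summed signal varied widely between control libraries. AGR2 made up 34.6%, 45.4% and 39.5% of the summed TPM of the 10 members in overexpressing libraries and 56.6%, 41.1% and 65.9% in controls. CEACAM6 made up 43.4%, 34.0% and 36.3% in overexpressing libraries and 23.4%, 32.6% and 16.6% in controls. The ranges overlapped for AGR2 and did not for CEACAM6, and no test was run on these shares. In overexpressing cells AGR2 averaged 2059 ± 205 TPM and CEACAM6 1971 ± 315 TPM (SD, n = 3), with overlapping ranges.

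**Figure D4:**
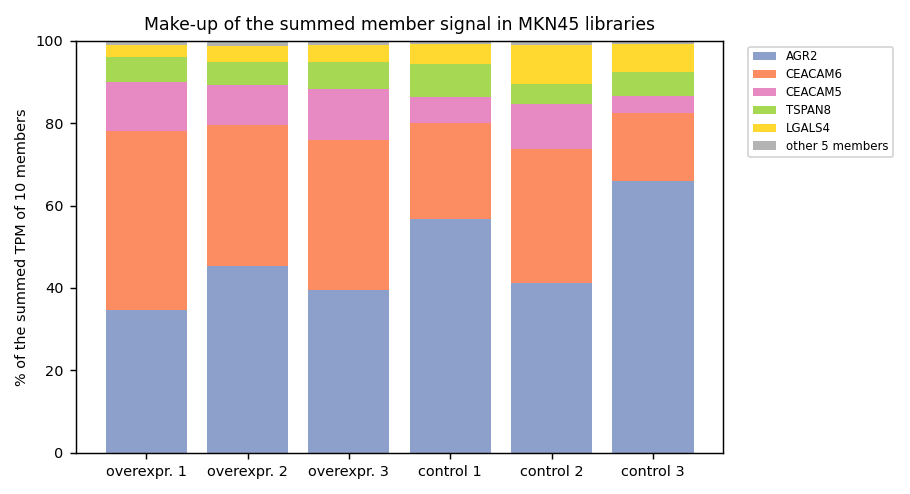
Share of the summed TPM of the 10 members taken by each gene in the 3 overexpression and 3 control libraries of MKN45. AGR2 and CEACAM6 take most of the signal in each library.

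In MKN28, both carcinoembryonic genes were lower in the ZNF165 knockdown. They were the only 2 members with enough counts to be tested, and both passed, where 40.8% of all 14939 genes passed, 19.2% higher and 21.6% lower. Both entered the test through their counts in MKN28 controls, so their number and direction are a description only. Their groups did not overlap, against 53.8% of all genes. CEACAM6 had 33, 17 and 2 counts in knockdown cells and 186, 138 and 104 counts in MKN28 controls, or 2.12, 1.68 and 0.229 CPM against 7.69, 5.85 and 4.51 CPM. All knockdown libraries lay below all controls (log2 fold change -2.13, SE 0.72, edgeR adjusted p = 0.0371).

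CEACAM5 had 1, 0 and 0 counts in knockdown cells and 26, 34 and 12 counts in MKN28 controls, without overlap (edgeR adjusted p = 0.00732). With 1 count in the knockdown, its size is given by the counts, which were 35.0-fold lower with a counting interval of 6.08 to 1401. CEACAM5 counts were 3.03%, 0% and 0% of CEACAM6 counts in knockdown libraries and 14.0%, 24.6% and 11.5% in controls.

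**Figure D5:**
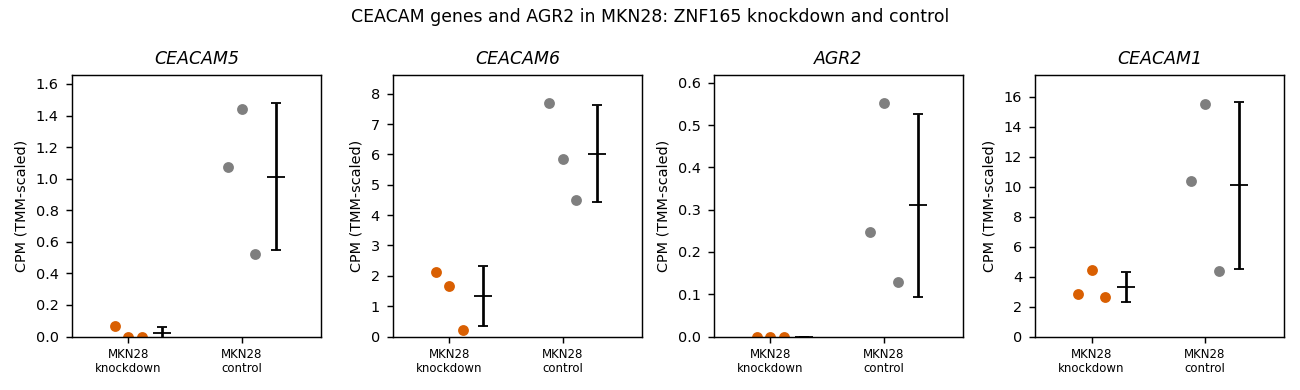
CPM of CEACAM5, CEACAM6, AGR2 and CEACAM1 in each MKN28 library, knockdown left and control right, with mean and SD (n = 3). CEACAM5, CEACAM6 and AGR2 do not overlap between groups, while CEACAM1 does.

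The CEACAM6 call was near the threshold. With 1 library left out its log2 fold change ran from -2.51 to -1.63, but the call was lost without MKN28 control replicate 1 (adjusted p = 0.133), replicate 2 (0.0727) or replicate 3 (0.0699), and without knockdown replicate 2 (0.0619) or 3 (0.0935). Calls over all genes fell in these runs as well, to 2642, 5248, 3171, 4250 and 4382 in that order, against 6092 with every library kept. With knockdown replicates 2 and 3 both left out, the libraries whose descriptions name other genes, 1 knockdown library remains, assumed to vary like the controls. CEACAM6 (log2 fold change -1.47, adjusted p = 0.129) and CEACAM5 (-3.84, adjusted p = 0.0718) then stayed lower without passing. Scaling by library totals alone gave CEACAM6 a log2 fold change of -2.84, while the median of all genes moved to -0.92 from -0.20.

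Other values moved with the knockdown. KRT8, a keratin of simple epithelium, had 8573, 43809 and 29055 CPM in knockdown cells and 1917, 2182 and 2779 CPM in controls, and fewer genes were detected, 17504 to 20560 against 21102 to 22579. The epithelial list as a whole summed to 14776 to 39701 CPM of library totals in knockdown cells and to 7805 to 8388 CPM in controls, none of its 10 genes being at 0. Of the 10, 5 were higher and 3 lower: the sum is carried by keratins such as KRT8 and KRT18 (9494 ± 5749 CPM in knockdown cells and 1534 ± 179 CPM in controls), while CDH1, ESRP1 and GRHL2 were lower (log2 fold changes -2.05, -2.29 and -3.03). Mesenchymal markers summed to 28.5 to 45.4 CPM in knockdown cells and 90.1 to 122.7 CPM in controls, with 2 of 9 tested and none called. Most of that sum is COL1A1 (on the TMM scale, which differs from library totals, 48.1 ± 26.5 CPM in knockdown cells and 77.8 ± 11.1 CPM in controls, with overlap), whereas COL3A1 had 54 counts in knockdown cells and none in controls, and the median log2 fold change of the 2 tested was 0.53. Leukocyte markers summed to 34.4 to 40.7 CPM in knockdown cells and 11.5 to 38.7 CPM in controls, with 1 of 3 tested called higher. Their part in the fall of CEACAM5 and CEACAM6 was not tested.

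The other members were too scarce in MKN28 for a test. AGR2 had no count in knockdown cells and 6, 13 and 3 counts in controls, at least 3.56-fold lower by the same limit. The groups did not overlap. LGALS4 had 10, 0 and 0 counts in knockdown cells and 6, 10 and 7 counts in controls, with overlap. MUC13 had 1, 4 and 0 counts in knockdown cells and none in controls. VIL1, GPA33 and TSPAN8 had no count in knockdown cells and 5, 6 and 1 counts over the controls, and CDH17 had none in either group.

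A contrast over all 12 libraries asked whether higher ZNF165 had a different effect in MKN45 than in MKN28. It equals the overexpression log2 fold change minus the log2 fold change of control over knockdown. MKN28 was only knocked down and MKN45 only overexpressed, so line, kind of manipulation and its size cannot be told apart. ZNF165 itself passed this contrast (1.67, SE 0.53, edgeR adjusted p = 0.0421). Its log2 fold change was 3.09 in the overexpression and -1.47 in the knockdown. By edgeR, 3 of 9 members tested passed, 1 higher and 2 lower, against 17.5% of all 17266 genes, made up of 8.09% higher and 9.38% lower. They were CEACAM5 (adjusted p = 0.0131) and AGR2 (adjusted p = 0.0154), lower, and MUC13 (adjusted p = 0.0203), higher. CEACAM5 rests on 73 counts in the whole of MKN28, AGR2 on 22, all in controls, and MUC13 on 5, all in the knockdown. AGR2 and MUC13 were too scarce to be tested within MKN28 and entered this fit through their MKN45 counts, so their calls are a description and their fitted differences are no measure of size. With 1 knockdown library, replicate 1, none of the 3 passed (adjusted p = 0.103 for CEACAM5, 0.0677 for AGR2 and 0.149 for MUC13), each keeping its direction.

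CEACAM6 differed by -1.64 (SE 0.68, adjusted p = 0.103), so a difference between lines was not shown for it, though it passed without knockdown replicate 1 (adjusted p = 0.0168). VIL1 differed by -3.60 (SE 1.76, adjusted p = 0.164) and LGALS4 by -1.48 (SE 0.94, adjusted p = 0.276). Knockdown replicate 1 holds all 10 LGALS4 counts of the knockdown, so its value is set by that library. LGALS4 passed without it (adjusted p = 0.00141), the knockdown then being at 0. Leaving out that library also raised calls over all genes in the knockdown, from 6092 to 10378. Over the alternatives, calls over all genes in the difference between lines ran from 1163 to 8210, against 3017 here. The gained calls of CEACAM6 and LGALS4 are thus not particular to them. GPA33 (-4.34, adjusted p = 0.206) and TSPAN8 (-1.99, adjusted p = 0.508) did not pass, and CDH17, with no MKN28 count, gives no difference.

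Lists of other intestinal genes give the members a setting. In the knockdown, 6 of 30 brush border and enterocyte genes were tested and 1 rose and 2 fell. PLS1, a fimbrin of the microvillus core, had 8.03, 1.78 and 1.26 CPM in knockdown cells and 58.1, 44.9 and 53.0 CPM in controls (log2 fold change -3.79, SE 0.74, edgeR adjusted p = 0.00501). DPP4, a brush border peptidase, fell as well (log2 fold change -2.70, SE 0.83, edgeR adjusted p = 0.0265). The DPP4 call was lost without MKN28 control replicate 1 (-2.56, adjusted p = 0.0803) or 3 (-2.62, 0.0701) or knockdown replicate 2 (-2.27, 0.0686). With 1 knockdown library its log2 fold change was smaller, at -1.42. AQP8, a water channel, had 19, 29 and 11 counts in knockdown cells and 1, 1 and 0 counts in controls, a ratio of 60.7 with a counting interval of 16.1 to 513 (edgeR adjusted p = 0.0037). AQP8 entered the test through its knockdown counts, so its call is a description. Genes of the list too scarce for a test also separated, in both directions. MYO1A (0 counts against 43 in controls) and MTTP (1 against 13) were lower. APOA1 (29 against 20), APOA4 (12 against 2) and GUCA2A (9 against 1) were higher.

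The median log2 fold change of the 6 tested brush border genes was 0.12, beside -0.20 for all genes. Of 15 goblet and secretory genes, 4 were tested and 1 rose, TSPAN1, a tetraspanin of secretory epithelia (log2 fold change 3.46, SE 0.65, edgeR adjusted p = 0.00453). Of 14 intestinal transcription factors, 7 were tested, 3 rose and none fell, beside 19.2% of all genes higher and 21.6% lower. Others of the list lay lower without overlap. KLF5 was tested and not called (log2 fold change -1.56, edgeR adjusted p = 0.0578). HNF4A had 1 count in knockdown cells and 27 in controls, and HNF4G 0 and 12, too few for a test. SPDEF, a goblet cell factor, had 22, 49 and 20 counts in knockdown cells and 7, 9 and 1 counts in controls (log2 fold change 3.53, SE 0.83, edgeR adjusted p = 0.00918). SPDEF too entered the test through its knockdown counts. With 1 knockdown library SPDEF did not pass (2.56, adjusted p = 0.0977). With the length and GC trend removed the log2 fold changes were smaller, at 1.87 for SPDEF, 2.25 for TSPAN1, -2.51 for PLS1, -1.98 for DPP4 and 3.94 for AQP8, and SPDEF lost its call when the replicate block was added (adjusted p = 0.0520). Of 14 other CEACAM and PSG genes, 4 were tested and none passed. CEACAM1 among them had a log2 fold change of -1.61 (SE 0.61, edgeR adjusted p = 0.0544).

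In the overexpression, none of the tested genes of these lists passed, being 11 brush border, 7 goblet, 4 CEACAM and 11 transcription factor genes by edgeR, with 3, 1, 0 and 1 at an unadjusted p under 0.05. Their medians were -0.12, -0.47, -0.08 and -0.13 on the log2 scale, beside 0.00 for all genes. Of 6 gastric markers tested, 1 rose. In the difference between lines, 1 of 13 brush border genes tested was higher and 2 lower, as were 1 and 0 of 7 goblet genes, 0 and 0 of 6 CEACAM genes and 2 and 1 of 11 transcription factors.

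Between the lines, 6 of 7 tested goblet genes were higher in MKN45 controls, as were all 5 tested gastric markers, beside 21.4% of all genes. As with the members, such genes could enter the test through their MKN45 counts. AGR3, the close relative of AGR2, had 4541, 2228 and 3872 counts in MKN45 controls and 3, 0 and 1 counts in MKN28 controls (log2 fold change 11.45, SE 0.63, edgeR adjusted p = 2.74e-07). ERN2, an endoplasmic reticulum stress sensor of mucous cells, had 2247 counts over the MKN45 controls and 1 over the MKN28 controls, and CEACAM7 had 520 and none, at least 205-fold higher. Of brush border genes, 7 were higher and 1 lower of 11 tested, the lower being EZR, ezrin, with 435, 643 and 336 CPM in MKN45 controls and 1332, 1720 and 1309 CPM in MKN28 controls (log2 fold change -1.63, SE 0.33). CEACAM19 was also lower (log2 fold change -1.18, SE 0.43, edgeR adjusted p = 0.043), but not without MKN28 control replicate 1 (0.0846) or 2 (0.189) or any of MKN45 control replicates 1 (0.138), 2 (0.0507) and 3 (0.106).

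Of 14 intestinal transcription factors, 11 were tested between the lines and 8 were higher in MKN45 controls. CDX2, an intestinal master regulator named after its values were seen, was not among them, with 18.4 ± 2.22 CPM in MKN45 controls and 17.7 ± 4.96 CPM in MKN28 controls (SD, n = 3, edgeR adjusted p = 0.923). In the MKN28 knockdown CDX2 was called higher (log2 fold change 1.86, SE 0.52, edgeR adjusted p = 0.0177). It had 50.5 ± 21.5 CPM there against 13.9 ± 3.65 CPM in controls, without overlap. The overexpression gave no call for CDX2 (log2 fold change -0.23, edgeR adjusted p = 0.519).

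The nearest patterns over the 12 libraries were taken as the smallest root-mean-square difference of centred log2 CPM among 15884 genes. CEACAM6 was the gene nearest to CEACAM5 (0.868), and CEACAM5 ranked 2 for CEACAM6, behind CEMIP (0.739). VIL1 and TSPAN8 were a closer pair of members (0.819). The nearest gene was BEX3 for VIL1 (0.364), P2RY1 for CDH17 (0.344), PLAC8 for LGALS4 (0.508), ELOVL5 for TSPAN8 (0.387), FBXO27 for GPA33 (0.276), LRIG1 for MUC13 (0.443) and LDHB for AGR2 (1.18). These distances are descriptions, dominated by the step between the lines.

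Counting could mix some members with other genes. Of the 50-base windows of the VIL1 transcript, 46.2% also occur in USP37 on the opposite strand. Without a known strand setting, VIL1 reads from that part cannot be told from those of USP37. The VIL1 TPM uses the whole transcript of 6531 bases. Of CEACAM5 windows, 20% occur on the same strand in other genes, mostly AC243967.1, and 40 in CEACAM6. For CEACAM6 the share was 7.92%. LGALS4, TSPAN8, GPA33, MUC13, FABP1 and AGR2 shared none.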

How the data were processed

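RNA-seq counts were analysed for 12 libraries in 4 groups of 3, grouped by the labels. The deposited table holds whole-number counts per Ensembl gene. The authors used HISAT2 and StringTie, per the submitters' processing notes. Their versions, the annotation and build, how reads were counted and whether by strand: not given in the sources used here.

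After filterByExpr (at least 10 counts, total at least 15), genes were tested with edgeR 4.0.16 (R 4.3.3) by its quasi-likelihood test with TMM scaling and Benjamini-Hochberg adjustment over all genes tested, at 0.05. Each arm and the control comparison used its own 6 libraries, and the contrast between lines used all 12. The SE is the absolute log2 fold change over the square root of F. The test was tried on simulated data first. DESeq2 1.42.0 was an alternative, and mgcv 1.9.3 removed length and GC trends.

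CPM values in the text carry the TMM factors of their comparison, except sums over marker lists, which use library totals. TPM was computed here from the longest basic protein-coding transcript in GENCODE 29. A count of 0 allows up to 0.153 to 0.248 CPM (3 counts). Count ratios carry 95% exact conditional binomial intervals. Floors and intervals cover counting error only, and a floor takes the counts of the group above 0 as exact.

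Same-numbered control libraries of the 2 lines deviated together (correlations 0.264, 0.507 and 0.281). So did MKN45 replicate 1 with MKN28 replicate 3 (0.275) and MKN45 replicate 3 with MKN28 replicate 1 (0.150). The correlations thus set replicate 2 apart and do not establish a pairing by number. The labels do not state a pairing. The block changed no member call there.

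The members and lists were chosen with earlier results of these data known. Named genes are the 10 members, ZNF165, up to 3 higher and 3 lower list genes per comparison by fold change among those past the threshold without overlap, and the nearest pattern of each member. Of the 50868 identifiers, 49659 had a symbol. Promoter sequences are from RefSeq, GRCh38.p14.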

Additional observations from a re-analysis of the deposited data

Results flagged for a closer look

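For 3 of 9 members tested the effect of higher ZNF165 differed between the MKN28 and MKN45 arms, against 17.5% of all 17266 genes. This was an edgeR test of the difference itself over all 12 libraries. Line, kind of manipulation, knockdown or overexpression, and its size cannot be told apart in it. ZNF165 itself passed (edgeR adjusted p = 0.0421), with a log2 fold change of 3.09 in the overexpression and -1.47 in the knockdown. AGR2 and MUC13 were too scarce for a test within MKN28 and entered through their MKN45 counts. With an MKN28 group at 0, and 1 count of CEACAM5 in the knockdown, the fitted values are no measure of size.

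MUC13 had a fitted difference of 5.67 on the log2 scale (SE 1.42, adjusted p = 0.0203). It had 1506 counts in overexpressing MKN45 cells and 605 in MKN45 controls. In MKN28, MUC13 had 1, 4 and 0 counts in knockdown cells and none in controls, so the groups overlapped. The difference no longer passed without knockdown replicate 2 (3.98, adjusted p = 0.162) or MKN28 control replicate 1 (adjusted p = 0.0543).

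CEACAM5 had a fitted difference of -4.39 (SE 1.01, adjusted p = 0.0131). It had 46399 counts in overexpressing MKN45 cells and 26848 in MKN45 controls, and 1 in knockdown MKN28 cells and 72 in MKN28 controls. CEACAM5 was thus lower in the knockdown and, without a call, higher in the overexpression (log2 fold change 0.48). Its negative difference is not one of direction.

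AGR2 had a fitted difference of -6.40 (SE 1.47, adjusted p = 0.0154). It had 100203 counts in overexpressing MKN45 cells and 137500 in MKN45 controls, and 0 in knockdown MKN28 cells and 22 in MKN28 controls, at least 3.56-fold lower in the knockdown. A cause was not tested for any of the 3.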

How the results depend on the processing

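Of 657 alternative values for members and named genes, 595 kept their direction and their side of the threshold, 39 lost the call, 15 gained one and 8 reversed. In the knockdown, members lower numbered 0 when 10 counts were required in every library (neither was tested) and 0 without knockdown libraries 2 and 3 together, and 1 to 2 with each library left out. The fit of all 12 libraries called 1 member higher, MUC13, and 3 lower, AGR2 among them (adjusted p = 0.00560). The fit with no filter also called 3 lower, with AGR2 at 0.0376. AGR2 has 0 knockdown counts. In the overexpression, DESeq2 and the length and GC correction each called 1 member higher. Members lower numbered 1 with DESeq2 size factors, upper-quartile factors, DESeq2 and no filter, and 2 with the length and GC correction. Calls over all genes moved too, to 1104 with that correction, 722 with no filter and 1 to 1338 with each library left out. Leaving out each library gave 0 to 1 higher and 0 to 2 lower. Between the lines, 2 members were higher where 10 counts were required, since fewer were tested. For the difference between lines, that filter and the loss of knockdown libraries 2 and 3 gave 0 higher and 0 lower, and each library left out gave 0 to 1 higher and 2 to 4 lower. Reversed values were VIL1 in the overexpression (-0.032 with upper-quartile factors, -0.43 with the length and GC correction, -0.35 with it and the block, and -0.067 to 0.16 with each library left out), TSPAN8 in the overexpression (-0.50 to 0.0052 with each library left out) and the TSPAN8 difference (0.031 by DESeq2). The cause was not tested.

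Knockdown and overexpression numbers did not pair. With the replicate block, CEACAM6 fell by 2.41 (adjusted p = 0.00673) and CEACAM5 by 4.95 in the knockdown, members lower stayed at 2, and genes past the threshold in the overexpression dropped to 8, against 179. DESeq2 called 1834 there. ZNF165 in the knockdown lost its call in 9 of 17 alternatives (adjusted p up to 0.198). Depth limits what MKN28 shows for all members but CEACAM6, and sets the wide interval of CEACAM5.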
